A study of Mus musculus with 6 samples.

Results

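The lipid-handling genes of macrophages followed here in brain tumour infiltrates of mice were Apoe, Trem2, Gpnmb, Spp1, Lpl, Fabp5, Apoc2, Pla2g7 and Cd36. They are 9 of the 32285 genes in each matrix, named as a list. Their UMIs (unique molecular identifiers, each marking 1 captured molecule) were counted in barcodes with at least 5000 gene UMIs and at most 10% mitochondrial UMIs that appeared in no table of T cell receptor (TCR) contigs. There were 4246 such barcodes at day 13 and 1452 at day 19, called outside barcodes here. Barcodes with the same minimum of 5000 UMIs and a TCR contig, 4632 and 3215, and barcodes of 10 to 100 UMIs, 63363 and 69869, were counted beside them as background.

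The study sorted CD3+ cells that also carried CD4 or CD8 from intracranial tumours of CT2A, a mouse glioma line, grown in wild-type C57BL/6J mice of 6 to 8 weeks. Droplet libraries with 5' chemistry were made at day 13, from 16 mice with replicates pooled from 4 mice each, and at day 19, from 4 mice. Both days received the same implanted line, and no treatment is named. Each day is 1 capture, so day, capture and number of mice cannot be told apart, no p-value is given, and intervals cover counting error only.

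Gene UMIs totalled 144565182 in the day-13 matrix and 81224453 in that of day 19, and 11 outside barcode sequences occurred on both days. The sort label and the data differ for part of these barcodes. Summed over all outside barcodes, 8 macrophage genes had 4339 and 6037 CPM (UMIs of a gene per 1000000 gene UMIs of the barcodes summed). The level was 1739 and 2775 CPM in barcodes with a TCR contig, and 2373 and 3462 CPM in the background barcodes of fewest UMIs. Not all outside barcodes shared it: 1945 and 425 of them, low in the markers and C1q genes described below, had 447.6 and 351.5 CPM. At least 2 UMIs of Cd3d, Cd3e and Cd3g, subunits of the T cell receptor complex, were held by 73.3% and 73.4% of all outside barcodes. In the set low in markers and C1q the shares were 75.7% and 64.9%. No doublet caller was run, so a barcode here can hold RNA of more than 1 cell, and for many comparisons values are also given without the barcodes with Cd3 UMIs, which leaves 1133 and 386 outside barcodes. Fewer cells and less RNA per cell cannot be told apart in summed levels.

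Macrophages that take up dying cells or myelin must store, break down or export the lipid they ingest. Receptors such as Trem2 and Cd36 bind lipids and lipoproteins at the surface, lipases free fatty acids, carriers such as Fabp5 move them inside the cell, and Apoe carries lipid out. Trem2, Apoe, Gpnmb, Spp1 and Lpl are also known as part of the state that microglia and tumour macrophages take on around damaged or lipid-rich tissue.

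Outside barcodes were sorted into ranges by the UMIs of 4 markers. A barcode joined a marker group if it held at least 2 UMIs of that marker and at most 1 of each of the others. P2ry12 and Tmem119, taken as a sum, are genes of resident microglia and marked 496 barcodes at day 13 and 365 at day 19. Vcan, a proteoglycan of monocytes, marked 82 and 15, Cd209a, a lectin of type 2 dendritic cells, 265 and 92, and Fscn1, an actin-bundling protein of mature dendritic cells, 376 and 62. Another 520 and 225 barcodes held at least 2 of the markers. Of those with none, 562 and 268 held at least 10 UMIs of the complement genes C1qa, C1qb and C1qc, which macrophages and microglia make, and the remaining 1945 and 425 did not.

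These are ranges of marker counts, not cell types. At day 13, 118 of the 496 P2ry12/Tmem119 barcodes held exactly 2 UMIs of the pair, and 165 of the 562 C1q barcodes held 1. A further 46 C1q barcodes held 10 to 14 C1q UMIs, while 87 of the remaining barcodes held 5 to 9. The microglia list had a summed level of 2589 CPM in the P2ry12/Tmem119 group and 429 CPM in the C1q group at day 13, and 1976 and 506 CPM at day 19. Cd3 UMIs were seen in 79.8% and 84.4% of P2ry12/Tmem119 barcodes and 81.0% and 82.1% of C1q barcodes. Fewer barcodes held them in the Cd209a group, 37.4% and 33.7%, and in the Vcan group, 29 of 82 and 3 of 15.

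Most members had a higher level in outside barcodes than in those with a TCR contig. In all outside barcodes Apoe stood at 3137 CPM at day 13 and 3096 CPM at day 19, against 896 and 1286 CPM in barcodes with a TCR contig and 1086 and 1023 CPM in barcodes of 10 to 100 UMIs. Of the 9 members, 5 were at least 2-fold higher outside than inside the TCR tables on both days: Apoe, Gpnmb, Lpl, Apoc2 and Pla2g7. Among 11490 genes with at least 100 UMIs in the sums, 3.99% were. Among barcodes with at least 10000 UMIs, Apoc2 (1.19 and 1.28) and Pla2g7 (1.19 and 1.19) were still past 2-fold on both days, while Apoe at day 19 (0.99), Gpnmb (0.92 and 0.89) and Lpl (0.64 and 0.89) were not. Pla2g7 and Apoc2 had log2 ratios of 1.90 and 1.84 at day 13 and 1.66 and 1.72 at day 19. Trem2 was close to the 2-fold line on both days, at 1.00 and 1.01, and Spp1 went from 1.34 at day 13 to 0.41 at day 19. The level inside the TCR tables was near that of the barcodes of 10 to 100 UMIs for these genes, for example 76.6 and 82.2 CPM for Trem2 and 50.7 and 69.9 CPM for Gpnmb at day 13. It was not spread evenly over the contig barcodes: 638 of 4632 at day 13 and 951 of 3215 at day 19 held at least 10 C1q UMIs, and the tenth of them richest in each gene held 96.99% of their Apoe UMIs and 95.9% of their Trem2 UMIs at day 13, and 88.7% and 76.9% at day 19. What share of this level came from T cells was not tested, and this holds wherever it is subtracted from another level.

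**Figure D1:**
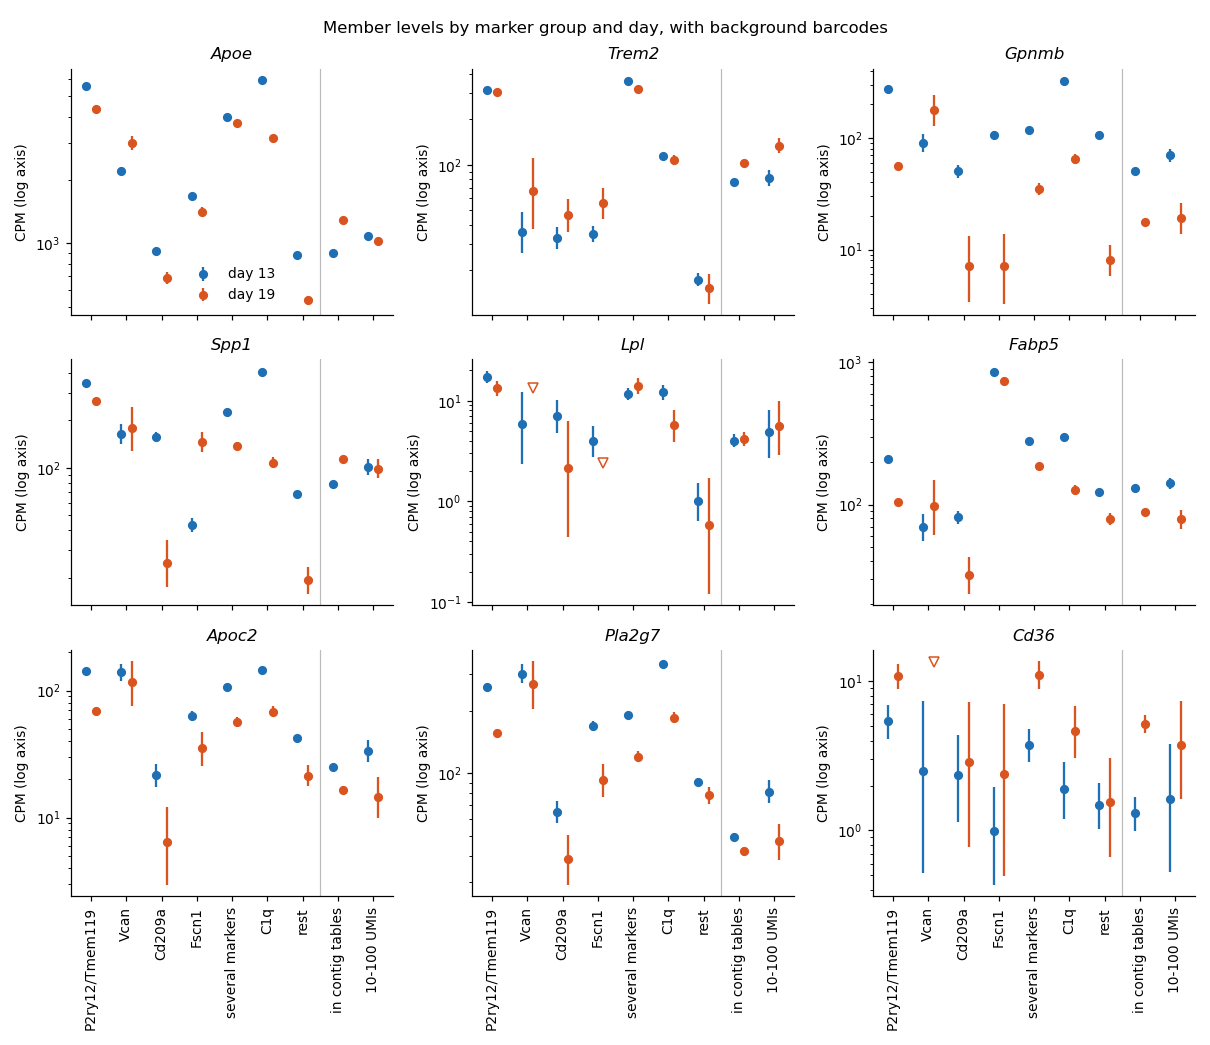
Level of each member in CPM on a log axis (each panel with its own range) in the 7 marker groups, in barcodes with a TCR contig and in barcodes of 10 to 100 UMIs, at day 13 (blue) and day 19 (orange). Points are summed levels, bars exact 95% Poisson intervals, and open triangles mark a sum of 0 at the limit of 3 counts. Gpnmb is lower at day 19 in 6 of the 7 groups, and Trem2 is high in the P2ry12/Tmem119 group on both days.

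Trem2, the receptor for lipids and apolipoproteins that signals through Tyrobp, was highest in barcodes with microglial markers. It stood at 313 and 306 CPM in the P2ry12/Tmem119 group and at 357 and 319 CPM in barcodes with several markers, against 114 and 108 CPM in the C1q group. In the Vcan group it had 36.1 and 67.0 CPM, in the Cd209a group 32.7 and 46.4 CPM, in the Fscn1 group 34.8 and 56.0 CPM and in the remaining barcodes 17.4 and 15.2 CPM. The first pair of groups lay above every other group on both days. The levels of the Vcan, Cd209a and Fscn1 groups could not be ordered, since their intervals overlapped on both days.

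The P2ry12/Tmem119 group exceeded the C1q group in Trem2 by a log2 ratio of 1.46 (95% interval 1.36 to 1.55) on the earlier day and 1.499 (1.38 to 1.62) on the later. It was the single member of 8 with enough UMIs that was at least 2-fold higher there on both days, against 0.963% of 9035 genes, and 0 members were lower, against 0.0%. With each barcode thinned to 5000 UMIs, 66.5% and 71.0% of P2ry12/Tmem119 barcodes held a Trem2 UMI, against 32.2% and 38.8% of C1q barcodes. In barcodes with a TCR contig, a mark of T cells, which should lack the gene, although some of these barcodes also held C1q UMIs, the share was 10.3% and 18.4%, at median depths of 7608 and 10079 UMIs before thinning against 18297 and 27182 in the P2ry12/Tmem119 group. Without thinning the shares in the P2ry12/Tmem119 group were 86.7% and 94.5%, and in the barcodes with a contig 13.1% and 26.6%. Without barcodes with Cd3 UMIs the Trem2 ratios were 1.62 and 2.45, and with groups formed at 1 marker UMI instead of 2 the day-13 ratio was 0.87, under 2-fold. Against the Vcan group, Trem2 was higher by 3.11 and 2.19 on the log2 scale, again the single member of 8 on both days, where 4.24% of 7940 genes were higher and 3.15% lower, with 0 members lower.

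Cd36, the scavenger receptor for oxidised lipoproteins and long-chain fatty acids, was sparse throughout. In the P2ry12/Tmem119 group it had 61 UMIs (5.40 CPM) at day 13 and 116 UMIs (10.8 CPM) at day 19. In the C1q group there were 22 and 27 UMIs, or 1.91 and 4.66 CPM. It was seen after thinning in 3.83% and 4.66% of P2ry12/Tmem119 barcodes, against 0.540% and 1.84% of barcodes with a TCR contig. The antibody panel held no tag for CD36 or Trem2, so their surface protein was not measured.

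The secreted apolipoproteins were high in both the P2ry12/Tmem119 and the C1q group. Apoe, the main lipid carrier secreted in the brain, stood at 5605 and 4341 CPM in the P2ry12/Tmem119 group and at 5938 and 3163 CPM in the C1q group. It had 2211 and 2998 CPM in the Vcan group, 3968 and 3710 CPM in barcodes with several markers, 1674 and 1414 CPM in the Fscn1 group, 920 and 682 CPM in the Cd209a group and 879 and 538 CPM in the remaining barcodes. The Cd209a group and the remaining barcodes lay below the 1086 and 1023 CPM of barcodes of 10 to 100 UMIs on both days, though without barcodes with Cd3 UMIs the remaining barcodes, at 1964 and 1231 CPM, lay above. Apoc2, the cofactor that activates lipoprotein lipase, had 142 and 68.7 CPM in the P2ry12/Tmem119 group and 145 and 68.2 CPM in the C1q group, and these groups did not differ beyond counting error on either day.

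The Vcan group held Apoc2 at 140 CPM at day 13, near the level of those groups, and at 116 CPM at day 19, from 26 UMIs. The order at day 19 turned without barcodes with Cd3 UMIs, with 170 CPM in the Vcan group (19 UMIs), 185 CPM in the C1q group and 218 CPM in the P2ry12/Tmem119 group. The Cd209a group had the lowest level, 21.6 and 6.42 CPM. Apoc2 lies on chromosome 7 at 19671579 to 19677941 (GRCm38.p6), near Apoe at 19696244 to 19701310. RefSeq lists a read-through gene, Gm44805, over the same span, and the matrix has no row of that name, so how reads of shared exons were counted is uncertain. Pla2g7 on chromosome 17 overlaps the long noncoding RNA 1700071M16Rik, whose reads are likewise uncertain.

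Lpl, lipoprotein lipase, which releases fatty acids from lipoprotein triglyceride, had few UMIs. It stood at 17.3 and 13.3 CPM in the P2ry12/Tmem119 group, with 191 and 115 UMIs in barcodes with several markers, and at 12.1 and 5.70 CPM in the C1q group. In the remaining barcodes it had 1.01 and 0.578 CPM, below the 4.85 and 5.64 CPM of barcodes of 10 to 100 UMIs. Pla2g7, the phospholipase that hydrolyses platelet-activating factor and oxidised phospholipids, had its highest level in the C1q group at day 13 (334 CPM). At day 19 it stood at 185 CPM in the C1q group and 268 CPM in the Vcan group, but without barcodes with Cd3 UMIs at 532 and 233 CPM, the latter from 12 barcodes. Its levels in the P2ry12/Tmem119 group were 261 and 156 CPM. It was the member, with Apoc2, for which the Vcan and C1q groups lay closest at day 13, with a log2 ratio of -0.15 (-0.31 to 0.00).

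No member was at least 2-fold higher or lower in the Vcan group than in the C1q group on both days (0 of 7 in either direction, against 2.83% higher and 1.95% lower of 6405 genes). At day 19 the Vcan group was 15 barcodes.

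Fabp5, a cytosolic carrier of fatty acids, was highest in the barcodes with the dendritic marker Fscn1. It had 856 CPM there at day 13 and 736 CPM at day 19, against 298 and 127 CPM in the C1q group, 210 and 104 CPM in the P2ry12/Tmem119 group and 81.8 and 32.1 CPM in the Cd209a group. After thinning, 77.4% and 80.6% of Fscn1 barcodes held a Fabp5 UMI, against 11.7% and 14.1% of barcodes with a TCR contig, whose median depth was 7608 and 10079 UMIs against 17192 and 13744. The Fscn1 group exceeded the C1q group by log2 ratios of 1.52 (1.46 to 1.58) and 2.54 (2.40 to 2.68).

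Fabp5 was the single member of 7 that was at least 2-fold higher in the Fscn1 than in the C1q group on both days, against 2.91% of 6939 genes. Apoe and Gpnmb were lower there on both days, 2 of 7 members against 1.1% of genes. Scaled to the UMIs of the myeloid genes Tyrobp, Fcer1g, Aif1 and Csf1r, neither was past 2-fold on both days, with Apoe at -0.45 at day 19 and Gpnmb at -0.78 at day 13. Without the barcodes with Cd3 UMIs, the Fabp5 ratio at day 13 was 0.78, under the 2-fold line. Compared with the C1q group, the Cd209a group was lower in 7 of 7 members on both days, with 2.1% of 6903 genes lower and 2.13% higher, and with 0 members higher. With a marker cut of 3 UMIs Spp1 was at -0.71 at day 13, and with at least 10000 UMIs a barcode Trem2 was at -0.89 at day 19, both under 2-fold. The log2 ratios ranged from -1.36 for Spp1 to -2.75 for Apoc2 at day 13, and from -1.22 for Trem2 to -3.41 for Apoc2 at day 19. The C1q group was chosen for C1q UMIs, and C1qa to C1qc were low in the Cd209a group as well, at 179 to 303 CPM against 1178 to 2012 CPM at day 13.

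Gpnmb, a transmembrane glycoprotein of lysosomes and melanosomes, and Spp1, the secreted matrix protein osteopontin, each came from few barcodes. Their sequences before the start site are shown because these genes differed most between the days in the C1q group. Each line gives the 250 bases up to the start site, 5' to 3' on the plus strand, from RefSeq (GRCm38.p6).
Gpnmb (chr6:49036268-49036517): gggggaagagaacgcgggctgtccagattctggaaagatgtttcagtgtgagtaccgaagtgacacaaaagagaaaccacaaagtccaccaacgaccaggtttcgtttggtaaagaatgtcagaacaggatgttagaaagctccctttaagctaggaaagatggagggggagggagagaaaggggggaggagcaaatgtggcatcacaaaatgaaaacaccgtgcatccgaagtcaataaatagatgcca
Spp1 (chr5:104434861-104435110): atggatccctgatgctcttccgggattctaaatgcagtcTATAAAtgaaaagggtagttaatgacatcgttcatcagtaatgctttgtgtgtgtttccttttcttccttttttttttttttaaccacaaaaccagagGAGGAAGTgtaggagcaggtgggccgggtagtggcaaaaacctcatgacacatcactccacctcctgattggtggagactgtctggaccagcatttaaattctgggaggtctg
Capitals mark matches to the motifs searched on both strands of the 300-base windows from 250 before to 50 after the start: CATGTG and CACGTG, the E-box cores of MITF and TFEB, GAGGAAGT, the site of the myeloid factor PU.1, and TATAAA. These occur in 14.2%, 7.15%, 3.20% and 13.6% of all 32851 windows. A window was found for 7 of the 9 members, and Fabp5 and Lpl were not matched. The Spp1 window above held GAGGAAGT 113 bases and TATAAA 211 bases before the start, and 1 of the 3 Apoe windows held TATAAA. No window of Gpnmb, Trem2, Apoc2, Pla2g7 or Cd36 held any of the 4.

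At day 13 Gpnmb stood at 321 CPM in the C1q group, 277 CPM in the P2ry12/Tmem119 group and 119 CPM in barcodes with several markers. The Fscn1 group (107 CPM), the remaining barcodes (107 CPM) and the Vcan group (90.7 CPM) had overlapping intervals, and the Cd209a group had the lowest level, 50.2 CPM. Spp1 had the same first 3 groups, at 404, 346 and 225 CPM, and then 165 CPM in the Vcan group, 158 CPM in the Cd209a group, 68.2 CPM in the remaining barcodes and 43.3 CPM in the Fscn1 group. At day 19 Spp1 was at 266 CPM in the P2ry12/Tmem119 group, where 1 barcode held 726 of the 2859 UMIs. In the C1q group at day 13 the tenth of barcodes with the most Spp1 held 93.0% of its UMIs.

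Between the days, Gpnmb was lower at day 19 and Cd36 higher in the outside barcodes as a whole. Gpnmb went from 164 CPM (12406 UMIs) to 41.7 CPM (1369 UMIs), with a log2 ratio of -1.98 (interval -2.06 to -1.90), and 0.304% of the 12182 genes compared had a lower ratio. Cd36 stood at 2.64 and 7.59 CPM, and its log2 ratio was 1.53 (1.25 to 1.80). With the level of barcodes with a TCR contig subtracted it was 0.87, under 2-fold. The other 7 members differed by less than 2-fold. Thus 1 of 9 members was lower, against 1.94% of genes, and 1 was higher, against 2.53%. The median ratio of the members was -0.39 and that of all genes 0.02. Without barcodes with Cd3 UMIs Gpnmb was at -2.60, Spp1 was past 2-fold as well, at -1.68 against -0.39 with them, and Cd36 was at 2.28 on 87 UMIs, too few for a call.

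Apoe differed by a log2 ratio of -0.02 in the whole although it was lower in 6 of 7 marker groups, and the P2ry12/Tmem119 group, where it is high, made up 11.7% of outside barcodes at day 13 and 25.1% at day 19. Cd36 was higher in barcodes with a TCR contig as well, at 1.30 and 5.16 CPM, and the log2 ratio there was 1.99. Gpnmb was lower in those barcodes too, from 50.7 to 17.6 CPM, and in barcodes of 10 to 100 UMIs, from 69.9 to 19.3 CPM.

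Within the C1q group the lower level at day 19 extended to 5 of 8 members with enough UMIs, against 1.54% of 9072 genes, and 0 were higher, against 2.01%. Gpnmb went from 321 to 64.9 CPM, with a log2 ratio of -2.31 (interval -2.46 to -2.15). Spp1 stood at 404 and 108 CPM, and its log2 ratio was -1.91 (interval -2.03 to -1.79). Its day-19 level was near the 114 CPM of barcodes with a TCR contig and the 98.7 CPM of barcodes of 10 to 100 UMIs. Lpl, at 5.70 CPM at day 19, was near the 5.64 CPM of the latter. Fabp5 had a log2 ratio of -1.23, Apoc2 and Lpl -1.09 each, and Apoe -0.91, just short of 2-fold. Without barcodes with Cd3 UMIs, 107 and 48 were left. Gpnmb was then at -2.64, Spp1 at -5.74 (1488 and 13 UMIs), Fabp5 at -1.71 and Apoe, now past 2-fold, at -1.15. Apoc2, at -0.61, was under 2-fold, and Lpl had 58 UMIs and 1 UMI.

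Trem2 stood at 114 and 108 CPM in the C1q group, and the interval of its log2 ratio was -0.21 to 0.06. These levels were near those of barcodes with a TCR contig, 76.6 and 103 CPM, and with the latter subtracted the ratio was -2.74. The median over the 8 members was -1.09, that of 60 further lipid genes -0.38 and that of all genes 0.03. Of the 6 genes of the monocyte list none was at 0, and their summed level in this group was 5368 CPM at day 13 and 2608 CPM at day 19, most of it from Ly6c2 (4023 and 1611 CPM), which some T cells also express. The 8 genes of the macrophage list summed to 5793 and 5077 CPM. The antibody tag for Ly6C, a surface protein of inflammatory monocytes and some T cells, gave 24.1 and 8.36 UMIs per 1000 tag UMIs in the C1q group. Whether this difference has a part in the members' ratios was not tested.

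In the P2ry12/Tmem119 group 3 of 9 members were lower at day 19, against 2.06% of 9744 genes, and 1 was higher, against 1.95%. Gpnmb stood at 277 and 56.5 CPM, and its log2 ratio was -2.29 (interval -2.42 to -2.17). Fabp5, at 210 and 104 CPM, and Apoc2, at 142 and 68.7 CPM, had log2 ratios of -1.02 and -1.05, and Cd36 was at 1.00 with an interval of 0.54 to 1.47. These 3 lay close to the 2-fold line, and Trem2 was at -0.03 (-0.10 to 0.04). Scaled to the summed UMIs of the myeloid genes Tyrobp, Fcer1g, Aif1 and Csf1r instead of all genes, Gpnmb was at -1.94, and Fabp5 and Apoc2, at -0.67 and -0.70, were no longer past 2-fold. In the C1q group the same scaling gave -1.96 for Gpnmb and -1.56 for Spp1, and brought Fabp5 (-0.88), Apoc2 (-0.74) and Lpl (-0.74) under 2-fold. Without barcodes with Cd3 UMIs, 100 and 57 P2ry12/Tmem119 barcodes were left, with Gpnmb at -3.20, Fabp5 at -2.48, Spp1, now past 2-fold, at -1.18 and Apoc2, now under it, at -0.50. Cd36 was at 2.65 there, on 30 UMIs. The monocyte list summed to 4076 CPM in the P2ry12/Tmem119 group at day 13 and 1877 CPM at day 19, and the Ly6C tag gave 13.7 and 9.64 UMIs per 1000 tag UMIs. The same list was lower at day 19 in all outside barcodes (4321 and 2257 CPM), in barcodes with several markers (3691 and 1645 CPM), in the Fscn1 group (3452 and 1716 CPM) and in barcodes with a TCR contig (3510 and 2196 CPM). Its part in the members' ratios was not tested in these groups either.

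**Figure D2:**
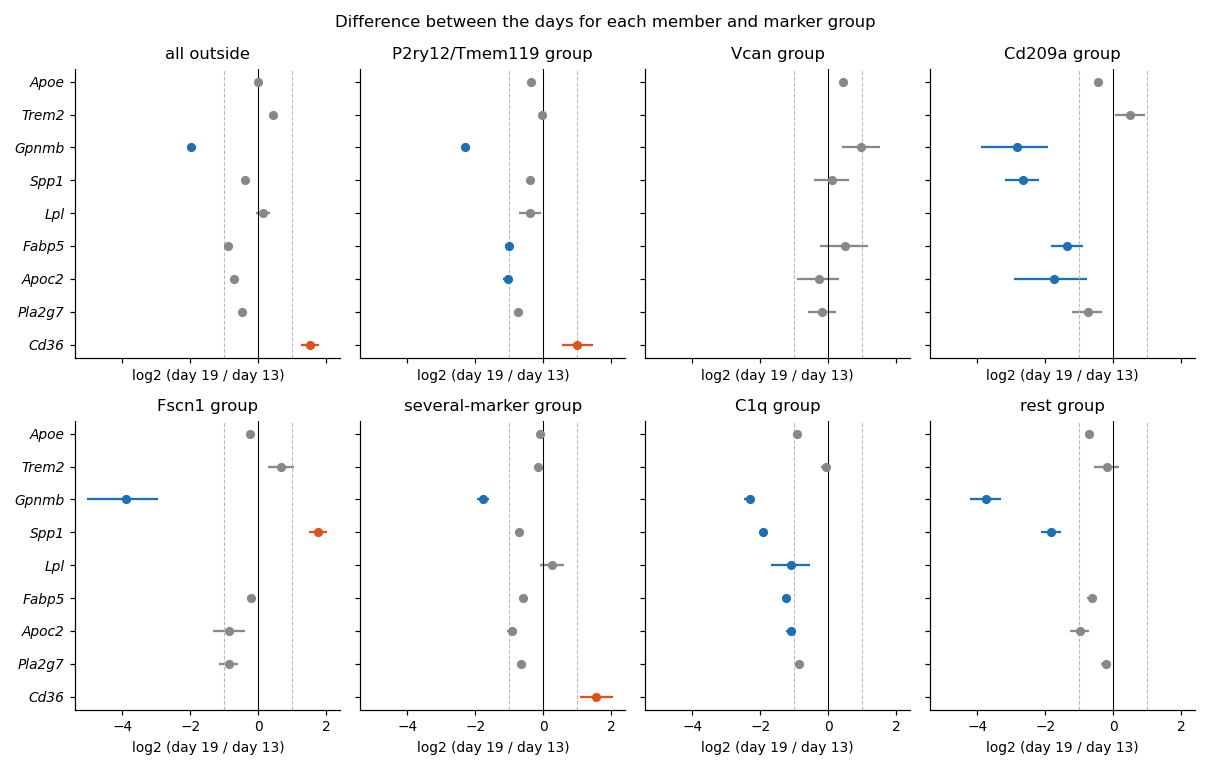
Log2 ratio of day 19 over day 13 for each member in all outside barcodes and in the 7 marker groups, with exact 95% intervals. Blue marks members at least 2-fold lower at day 19, orange those at least 2-fold higher and grey the rest, dashed lines 2-fold, and members with under 100 UMIs are left out. Gpnmb is blue in every panel except that of the Vcan group.

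In the Cd209a group 4 of 7 were lower, Gpnmb, Spp1, Fabp5 and Apoc2, against 0.89% of 5840 genes, and 0 were higher, against 0.377%. Their day-19 sums were small, 10 UMIs for Gpnmb and 9 for Apoc2. None of the 4 calls held without barcodes with Cd3 UMIs, and Gpnmb had 0 UMIs in the 166 barcodes left at day 13 and 0 in the 61 at day 19. Apoe was past 2-fold in that setting instead, at 182 and 73.0 CPM (303 and 45 UMIs), with a log2 ratio of -1.32 against -0.43 with all Cd209a barcodes. In barcodes with several markers Gpnmb alone was lower, at 119 and 34.8 CPM (1 of 9, against 1.96% of 9995 genes), and Cd36 alone was higher, with a log2 ratio of 1.57 (1 of 9, against 1.82%). Without barcodes with Cd3 UMIs, Gpnmb was at -0.72 there, under 2-fold, on 94 and 21 UMIs, and Cd36 at 3.37 on 24 UMIs.

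In the remaining barcodes Gpnmb and Spp1 were lower (2 of 7, against 1.22% of 9956 genes), with log2 ratios of -3.73 and -1.82, and 0 were higher, against 1.18%. With barcodes with Cd3 UMIs left out, these ratios were -6.24 (1347 and 6 UMIs) and -2.96, and Apoc2 was past 2-fold as well, at -1.11. That group also held genes of the choroid plexus, whose list had a summed level of 211 CPM at day 13 and 37.2 CPM at day 19. In the Fscn1 group Gpnmb had 107 and 7.20 CPM, and a log2 ratio of -3.89 (1 of 7 lower, against 2.27% of 7525 genes). Spp1 was higher there, at 43.3 and 146 CPM (1 of 7, against 1.13%), but 125 of its 183 UMIs at day 19 lay in 1 barcode, and without barcodes with Cd3 UMIs it had 56 and 0 UMIs. That setting left 126 and 28 Fscn1 barcodes, with Gpnmb at -3.91, Apoe, now past 2-fold, at -4.00 (1751 and 22 UMIs; -0.24 with them) and Pla2g7 at -1.51.

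The Vcan group was the exception for Gpnmb, with 90.7 CPM at day 13 and 179 CPM at day 19. All 40 day-19 UMIs lay in 1 of its 15 barcodes. Among barcodes with at least 80% of their multiplexing tag UMIs on 1 tag, the day ratio of Gpnmb was -2.57 in all outside barcodes, -3.04 in the P2ry12/Tmem119 group and -3.31 in the C1q group.

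Each capture held cells labelled with 4 multiplexing tags, and barcodes were split by the tag with the most UMIs. Most of these barcodes had less than 80% of their tag UMIs on 1 tag. At least 80% lay on 1 tag in 28.4% and 42.0% of outside barcodes at day 13 and day 19. The shares were 21.0% and 39.9% in the C1q group and 20.2% and 31.2% in the P2ry12/Tmem119 group. Among barcodes with a TCR contig they were 74.7% and 76.05%. The labels do not tie tags to mice and the sets share a capture, so they are not replicates. The share of all genes whose sets lay apart between the days was not counted. Sets that lie apart are therefore not read as particular to the members. In the C1q group Gpnmb stood at 389, 256, 240 and 477 CPM in the 4 sets of day 13 and at 32.8, 57.7, 112 and 53.7 CPM in those of day 19. Every set of day 19 lay below every set of day 13. The same was seen in the C1q group for Apoe, at 5390 to 6932 CPM and 2774 to 3592 CPM, and for Spp1, Fabp5, Apoc2 and Pla2g7. The day-19 sets of Cd36 all lay above those of day 13, but on few UMIs. These were 6, 9, 3 and 4 at day 13 and 4, 12, 6 and 5 at day 19, too few in sum for a call.

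For Trem2 and Lpl the sets of the C1q group overlapped, Trem2 ranging from 81.9 to 157 CPM and from 88.1 to 164 CPM. In the P2ry12/Tmem119 group the sets lay apart for Gpnmb (217 to 353 and 25.4 to 76.8 CPM), Fabp5, Apoc2 and Pla2g7. They overlapped for Apoe, Trem2, Spp1, Lpl and Cd36, and Spp1 spanned 46.3 to 405 CPM at day 19 alone. In all outside barcodes Cd36 had 2.33 to 3.37 CPM in the day-13 sets and 7.11 to 7.70 CPM in the day-19 sets.

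**Figure D3:**
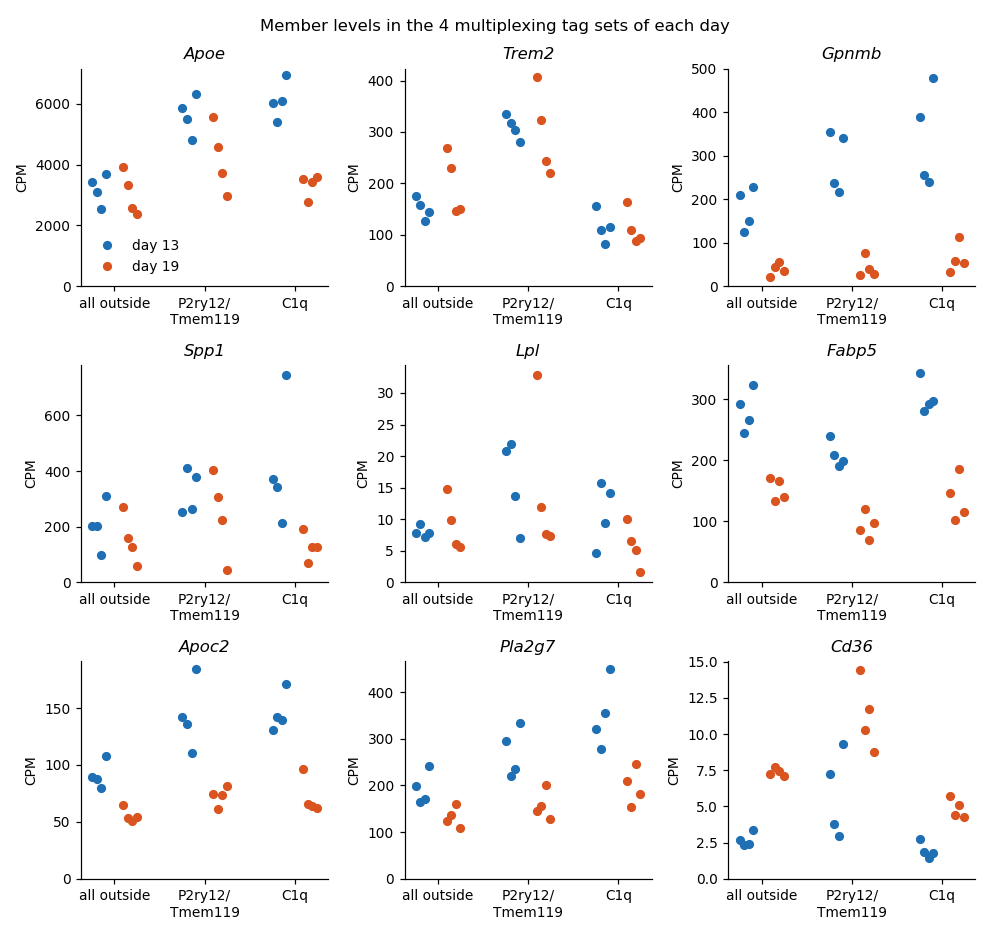
Level of each member in CPM (linear axis from 0) in the 4 multiplexing tag sets of day 13 (blue) and day 19 (orange), for all outside barcodes, the P2ry12/Tmem119 group and the C1q group. Each point is 1 tag set, in tag order from left to right. The Gpnmb sets of the days do not overlap in any of the 3, whereas those of Trem2 overlap in all 3.

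Few barcodes carried Gpnmb. After thinning to 5000 UMIs, 158 of 562 C1q barcodes (28.1%, Clopper-Pearson 95% interval 24.4 to 32.0) held a Gpnmb UMI at day 13 and 24 of 268 (8.96%, 5.82 to 13.0) at day 19. In the P2ry12/Tmem119 group the shares were 20.2% (16.7 to 24.0) and 7.95% (5.39 to 11.2). Barcodes with a TCR contig gave 2.81% and 2.58%. These 158 and 24 barcodes held 1266 and 120 thinned Gpnmb UMIs, and 65 and 5 of them held at least 5. Without thinning the shares in the C1q group were 36.7% and 15.7%, and in the P2ry12/Tmem119 group, where the median depth went from 18297 to 27182 UMIs, 27.6% (23.7 to 31.8) and 73 of 365 barcodes (16.0 to 24.5%), with intervals that overlapped.

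At day 13 barcodes with a Gpnmb UMI had higher levels of 6 other members in both the C1q and the P2ry12/Tmem119 group. The C1q barcodes with it had 1105 CPM of Fabp5 against 75.7 CPM in those without, a log2 ratio of 3.87 (3.62 to 4.12). For Spp1 the levels were 1417 and 104 CPM, for Apoe 14289 and 4014 CPM, and for Pla2g7 646 and 257 CPM. Trem2 had 241 and 85.6 CPM, and Apoc2 249.4 and 106 CPM. Barcodes with Gpnmb also held more C1q, with a median of 87 against 56 UMIs at day 13 and 141.5 against 56 at day 19 in the C1q group, and of 248.5 against 115 and 268 against 190.5 in the P2ry12/Tmem119 group. The part of this difference in the members' levels was not tested. At day 13 Cd3 UMIs were held by 71.5% of C1q barcodes with Gpnmb and 84.7% without, and by 83.0% and 79.0% in the P2ry12/Tmem119 group. At day 19 in the C1q group the log2 ratio of barcodes with over those without Gpnmb was 3.55 for Fabp5, 1.20 for Pla2g7 and 0.98 for Apoe. The intervals held 0 for Spp1 (-0.39 to 1.22), Trem2 (-0.30 to 1.13) and Apoc2 (-0.01 to 1.70), and Cd36 was too sparse to compare. In the P2ry12/Tmem119 group at day 19 the ratios were 3.20 (2.96 to 3.43) for Spp1 and 0.59 (0.25 to 0.92) for Trem2, while the interval for Apoc2 held 0 (-0.40 to 1.25).

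Among C1q barcodes without a Gpnmb UMI, Fabp5 stood at 75.7 CPM at day 13 and 68.9 CPM at day 19, and the interval of the log2 ratio was -0.54 to 0.26. Spp1 stood there at 104 and 96.7 CPM, with an interval of -0.44 to 0.24. In those with Gpnmb, Spp1 had 1417 and 133 CPM, the latter from 16 UMIs in 24 barcodes, and its log2 ratio was -3.41 (-4.22 to -2.70). Fabp5 was at 808 CPM there at day 19, with a log2 ratio of -0.45 (-0.77 to -0.15). Apoe had 14289 and 6142 CPM in C1q barcodes with Gpnmb, a log2 ratio of -1.22 (-1.33 to -1.11). In those without, its log2 ratio was -0.36 (-0.42 to -0.31). A barcode with no Gpnmb UMI after thinning may still express the gene.

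In P2ry12/Tmem119 barcodes without Gpnmb, Fabp5 was 56.6 CPM on both days, while Spp1 had 299 and 202 CPM, and its log2 ratio was -0.56 (-0.76 to -0.37). In P2ry12/Tmem119 barcodes with Gpnmb, Spp1 had 1086 CPM at day 13 and 1855 CPM at day 19, the latter from 29 barcodes. Fabp5 had 706 and 331 CPM in those barcodes, the latter from 48 UMIs. Its log2 ratio there was -1.09 (-1.56 to -0.65), past 2-fold. Apoc2 was lower at day 19 in barcodes without Gpnmb as well, with log2 ratios of -0.66 (-1.05 to -0.29) in the C1q group and -0.76 (-1.08 to -0.45) in the P2ry12/Tmem119 group.

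**Figure D4:**
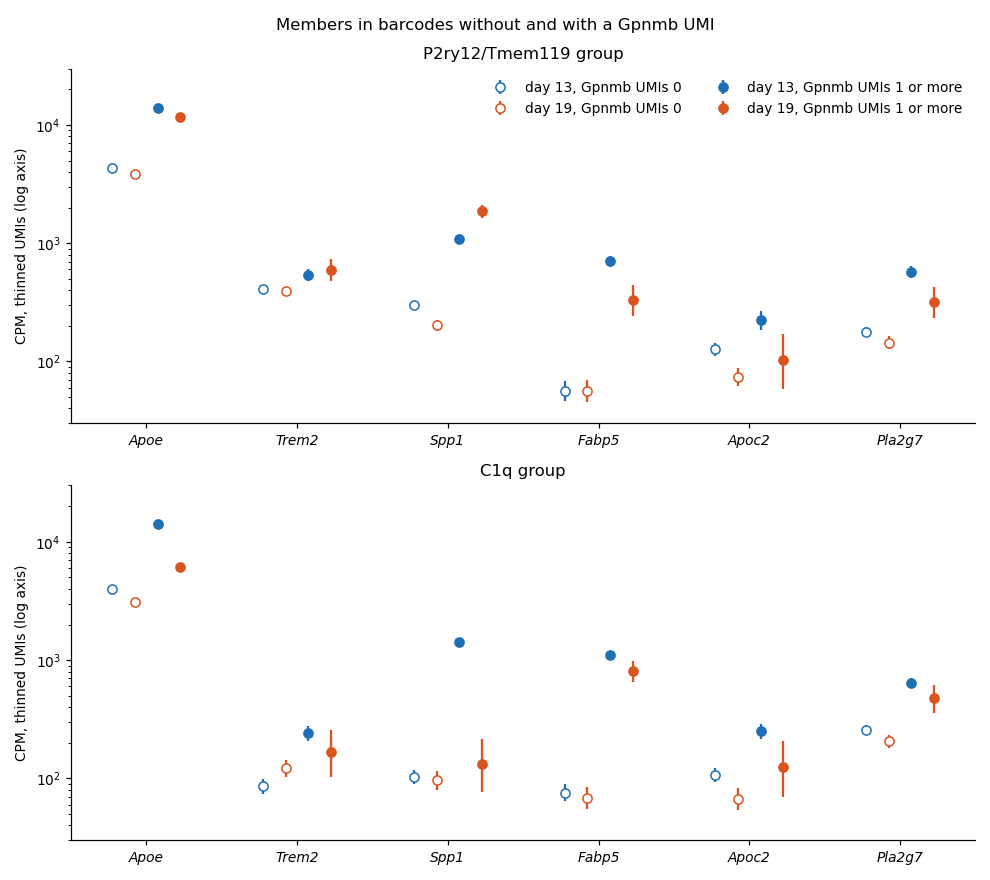
Level of 6 members in CPM of thinned UMIs, on a log axis, in barcodes without (open) and with (filled) a Gpnmb UMI, at day 13 (blue) and day 19 (orange), in the P2ry12/Tmem119 and C1q groups, with exact 95% Poisson intervals. The open points of Fabp5 lie together on both days, at 75.7 and 68.9 CPM in the C1q group, under filled points of 1105 and 808 CPM. In the P2ry12/Tmem119 group its filled points are at 706 and 331 CPM.

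Across thinned barcodes of 2 groups, Gpnmb and Fabp5 had the highest rank correlation of the 36 member pairs at day 13, Spearman's rho of 0.52 over 562 C1q barcodes and 0.60 over 496 P2ry12/Tmem119 barcodes. Over all 4246 thinned outside barcodes their rho was 0.34, below the 0.61 of Apoe and Pla2g7. Without thinning they were not first in either group, at 0.50 and 0.61, against 0.57 for Apoe and Pla2g7 in the C1q group and 0.71 for Apoc2 and Pla2g7 in the P2ry12/Tmem119 group. At day 19 the thinned rho of Gpnmb and Fabp5 was 0.27 and 0.29, over 268 and 365 barcodes. Apoe and Pla2g7 had thinned rho of 0.43 and 0.50 in the C1q group and 0.48 and 0.51 in the P2ry12/Tmem119 group on the respective days. Trem2 and Gpnmb were at 0.31 and 0.10 in the C1q group after thinning, and no thinned pair with Cd36 exceeded 0.20. Without thinning, Trem2 and Cd36 reached 0.35 over all outside barcodes at day 19. Barcodes of a day share a library, and the sparse counts of Lpl and Cd36 limit any such value.

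Over the 14 sums of 7 groups and 2 days, the members split by profile. Apoc2 and Pla2g7 had a Pearson r of 0.97, Apoe and Trem2 0.85, and Gpnmb and Trem2 0.35. The 3 other genes most like Gpnmb were Fam20c (0.94), Nr1h3 (0.91), which encodes the oxysterol receptor LXR alpha, and Gdf15 (0.91). Among those most like Trem2 were Camk1 (0.99) and Rnase4 (0.97), and those most like Apoe were C3ar1 (0.98), Aif1 (0.97) and Ctsb (0.95). Fabp5 was nearest to Gpr157 (0.95), Bcl2a1b (0.95) and Tmem127 (0.94), and Pla2g7 to Mmp14 (0.96), Cib1 (0.95) and C3 (0.95).

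The profile of Apoc2 was nearest to those of Acp2 (0.96), Sra1 (0.96) and Cfb (0.94), and that of Lpl to Tnf (0.92), Abi3 (0.91) and Ccl4 (0.90). For Cd36 they were Ltc4s (0.90), Crybb1 (0.89) and Tns1 (0.88), and for Spp1 Pdgfa (0.84), Atp6v1c1 (0.84) and Ftl1-ps1 (0.83). The sums share 2 libraries and the highest were taken from 9160 genes, so these values describe likeness only.

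Another 77 genes of lipid handling were read from a list. In all outside barcodes 4 of 72 with enough UMIs (5.56%, against 1.94% of all genes) were at least 2-fold lower at day 19 (Apod, Fabp4, Nr1h3 and Atp6v0d2) and 2 (2.78%, against 2.53%) were higher (Apoc4 and Mrc1). Nr1h3 stood at 42.2 and 15.4 CPM, and its log2 ratio was -1.45 (-1.59 to -1.32). Fabp4, a carrier related to Fabp5, had 92 and 9 UMIs, and Atp6v0d2, a subunit of the lysosomal proton pump, 142 and 18.

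In the C1q group 4 of 60 were lower, Apod, Nr1h3, Mitf and Igf1 (6.67%, against 1.54% of all genes), and 0 higher, against 2.01%. Nr1h3 stood there at 81.6 and 25.0 CPM, and Mitf, a factor of lysosomal genes, at 31.3 and 11.6 CPM. Igf1, a growth factor of macrophages, had 14.3 and 4.14 CPM. In the P2ry12/Tmem119 group 4 of 63 were lower (6.35%, against 2.06% of all genes) and 1 higher (1.59%, against 1.95%). Nr1h3 stood there at 49.5 and 15.8 CPM, and Mrc1, the macrophage mannose receptor, was higher, at 2.48 and 8.11 CPM. None of the 7 sterol synthesis genes was 2-fold different in all outside barcodes, with a median log2 ratio of -0.01. Cst7, a protease inhibitor of the microglial damage state, pointed the other way from Gpnmb, at 111 and 221 CPM, a log2 ratio of 1.00 just under 2-fold. It is 1 of 6 microglial disease-state genes of the list, whose median log2 ratio was -0.08 in all outside barcodes. Their median was -0.24 in the C1q group and -0.55 in the P2ry12/Tmem119 group, with Igf1 at least 2-fold lower in both groups.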

How the data were processed

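Per the file headers and labels, the authors deposited unfiltered Cell Ranger matrices of raw UMI counts per feature and barcode and tables of TCR contigs. Per the submitters' processing notes, Cell Ranger 4.0.0, STAR 2.7.5c, bcl2fastq 2.20, Seurat and R 4.1.2 were used, with mm10 as the genome. No cell filter of the authors was applied to these matrices. The members, gene lists and marker groups were chosen with earlier results of these data known.

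From the counts, barcodes were kept at 5000 or more gene UMIs and at most 10% mitochondrial UMIs, with no contig, and UMIs were summed per group and day. Ratios of CPM carry exact 95% intervals for 2 Poisson counts. A member or gene was called higher or lower at 2-fold or more with at least 100 UMIs in the 2 sums, and in comparisons of groups on both days. A sum of 0 was set to 3 counts. Shares of barcodes used 5000 UMIs drawn from each, with Clopper-Pearson intervals. With 1 capture a day no test was made. Across the days, 11 outside and 28 contig barcode sequences were shared, and no doublet caller was run. The ratio code was tested on simulated data.

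Named were the 9 members, the 3 highest and 3 lowest further lipid genes by ratio where described, and the 3 genes most like each member over 14 sums of log2(CPM + 1), among genes with at least 500 UMIs. One of the genes most like Trem2 is not reported here. Apod and Apoc4 are named as part of counts of 5 or fewer. Alternatives were 10000 UMIs, marker cuts of 1 and 3 UMIs, other scalings, a fold of 1.5, subtraction of the level inside the TCR tables, and leaving out barcodes with Cd3 UMIs, barcodes with mixed multiplexing tags, or each tag set. Scaling per myeloid UMI was chosen after seeing the data. Python 3.11.15, numpy 2.4.6, scipy 1.17.1, pandas 2.3.3 and matplotlib 3.10.9 were used.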

Additional observations from a re-analysis of the deposited data

Results flagged for a closer look

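Spp1 differed between the days in opposite directions in different marker groups, which is why it is given again here. Its log2 ratio of day 19 over day 13 was 1.757 in the Fscn1 group, against -2.657 in the Cd209a group, -1.907 in the C1q group and -1.823 in the remaining barcodes. The difference between these groups was not tested, since each day is 1 capture. In the Fscn1 group at day 19, 125 of the 183 Spp1 UMIs came from 1 of 62 barcodes.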

How the results depend on the processing

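The lower level of Gpnmb at day 19 stayed past 2-fold in 19 of 19 settings in the P2ry12/Tmem119 group (log2 -3.20 to -1.94) and in 19 of 19 in the C1q group (-3.31 to -1.96). In all outside barcodes its ratio ranged from -2.60 to -1.85 over 17 settings. The 5 members higher outside than inside the TCR tables became 2 (Apoc2 and Pla2g7) at 10000 UMIs. The 1 member lower at day 19 in all outside barcodes became 2 at 10000 UMIs, 2 without barcodes with Cd3 UMIs, 2 with 80% of tag UMIs on 1 tag, 3 with the inside level subtracted and 3 at a fold of 1.5. The 1 higher member, Cd36, became 0 without barcodes with Cd3 UMIs, where its ratio was larger (2.28) but its 87 UMIs were too few for a call, and 0 with the inside level subtracted (0.87). Within groups, the 16 lower pairs of member and group became 28 at a fold of 1.5. The 3 higher pairs became 0 without barcodes with Cd3 UMIs, where the ratios of Cd36 were larger (2.65 and 3.37) on 30 and 24 UMIs and that of Spp1 in the Fscn1 group reversed, 1 with 80% of tag UMIs on 1 tag, and 1 with the inside level subtracted. The 12 pairs that differed between groups on both days became 7 with the inside level subtracted. Leaving out each tag set in turn gave 4 to 6, 1 to 1, 1 to 1, 12 to 17, 1 to 3 (1 without CMO301 of day 19) and 11 to 16 for these counts in the same order. Of 171 member ratios, 51 changed sign in at least 1 setting, among them 47 of the 92 under 2-fold or with too few UMIs, such as Apoe, Apoc2 and Pla2g7 between the days in the Fscn1 group (1.55, 0.95 and 0.66 with 80% of tag UMIs on 1 tag). Among the called values direction reversed for Apoc2 in the Cd209a group (0.24 with 80% of tag UMIs on 1 tag), for Spp1 in the Fscn1 group (-1.907 without barcodes with Cd3 UMIs, with its 0 UMIs of day 19 set to 3, -0.2856 with 80% on 1 tag), and for Gpnmb in the comparisons with the 15 Vcan barcodes of day 19. Against the C1q group the Vcan group was then at -0.9226 with 80% on 1 tag and at -2.022 to 2.739 without each tag set, and the P2ry12/Tmem119 over Vcan ratio at 0.7671 and at -3.85 to 1.921, the reversals coming without CMO304. The cause of these shifts was not tested. No paired analysis was possible because each day is 1 capture and no test was made.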
